A study of Caenorhabditis elegans with 16 samples.

Results

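Starved worms of the deletion strain *alfa-1(ok3062)* were compared with starved worms of the wild-type strain N2 across all genes of an Affymetrix *C. elegans* array. The comparison was between 8 of the 16 arrays of the series, 4 titled ok3062_starvation and 4 titled N2_starvation. The remaining 8 arrays held the same strains well-fed, and each gene's spread was estimated from all 16 arrays unless stated otherwise. Each of 25498 genes was read by the brightest of its probe sets, among the 25546 of 29317 probe sets that the platform table pairs with exactly 1 gene. Values are log2 expression values that the authors made with RMA, so a difference of 1 is a 2-fold change, and log2 fold changes are given as mutant over N2.

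The mutant worms carried the ok3062 deletion in *alfa-1*, and according to the methods this strain (RB2260) had been backcrossed at least 4 times. The sample labels instead give the strain as IW313 for the mutant and IW314 for N2, and a further label field gives IW314 for all samples. Both starved groups were whole worms kept for 6 hr in M9 buffer without food, at L3 by the labels and at L3/L4 by the methods. The well-fed worms were kept in M9 with food for 6 hr by the labels, whereas the methods have them frozen at once. Worms of each strain were divided among tubes, and nothing in the sources used here puts the 4 samples of a group in separate cultures. The p-values therefore cover the spread among these samples alone, and that spread may be technical. In addition, 1 mutant strain was compared with 1 wild-type strain, so the deletion and any other difference between the strains or their cultures cannot be told apart.

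The gene *alfa-1* is the worm ortholog of *C9orf72*, whose repeat expansion is a common inherited cause of amyotrophic lateral sclerosis and frontotemporal dementia. Its product works with SMCR8 on lysosomes, where the Rag GTPases report amino acid supply to the kinase complex TORC1. When worms run out of food TORC1 activity drops, the transcription factor HLH-30, ortholog of TFEB, enters nuclei, and genes for autophagy and for lysosomal lipases of the lipl family are induced. Fat stored in the intestine is then broken down, which is why lipid genes are of interest in a starved mutant of this pathway.

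Each starved mutant sample had less *alfa-1* signal than any starved N2 sample. Its log2 values were 7.39, 7.56, 7.67 and 7.45 in starved *alfa-1(ok3062)* worms, against 9.50, 9.23, 9.59 and 9.30 in starved N2 worms. The difference was 3.70-fold (log2 fold change -1.89, standard error 0.0926, adjusted p = 1.21e-08 from limma), and an exact permutation test of 4 against 4 samples gave p = 0.0286 (two-sided), the smallest p this design allows. The remaining signal in the mutant lay above the array medians of 5.80 to 5.85. The sources used here do not give the position of the probes relative to the deletion, and a probe outside the deleted stretch would not check the label.

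The arrays of the starved worms were more variable than those of the well-fed worms. Over all genes, the median within-group SD was 0.168 in the starved mutant and 0.171 in starved N2, against 0.135 in the well-fed mutant and 0.139 in well-fed N2, and all arrays of a group correlated at 0.983 or more. By median distance from their group, N2 replicate 3 (0.188) and mutant replicate 2 (0.187) stood farthest out among the starved samples. Markers of intestine (6 of 7 tested), hypodermis (5), body muscle (4), neurons (5), pharynx (3), germline (4), sperm (4), oocytes (4) and the adult stage (4) were tested, and 0 of them passed. The adult collagen gene *col-19* and the yolk protein genes *vit-2*, *vit-5* and *vit-6*, which are known for the last larval molt and the adult rather than for L3, had means between 11.54 and 12.49 over the 8 starved arrays, far above the array medians. In whole worms, fewer cells of a type and less RNA per cell cannot be told apart.

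In starved worms 24 of 25498 genes differed between the strains at an adjusted p under 0.05 from limma, which is 0.0941% of the genes tested. The mutant was higher in 5 of them (0.0196%) and lower in 19 (0.0745%). The higher genes had log2 fold changes between 0.95 and 2.48, and the lower genes between -0.34 and -2.09. Without adjustment, a p under 0.05 from limma, called nominal from here on, was reached by 3091 genes (12.1%), with 1238 higher (4.86%) and 1853 lower (7.27%). The samples of the strains did not overlap for any of the 24 genes, which were selected on these samples, nor for 4.24% of all genes (1.49% higher and 2.76% lower in the mutant). The methods name an unpaired t-test for the study in general and no test for the arrays. Applied here to the same starved samples without adjustment, that t-test found 643 genes higher (2.52%) and 1119 lower (4.39%). All 24 were among them. Leaving out 1 array at a time, 11 of the 24 genes passed in all 8 fits. For losses among the 24, the mutant arrays that mattered most were replicate 2, without which 11 of the 24 passed, and replicate 4, without which 13 passed. Without N2 replicate 2 the number was 14, and without N2 replicate 3 it was 15. Without N2 replicate 4 or mutant replicate 3 it was 19, and without replicate 1 of either strain it was 22. Over all genes, 71 passed without N2 replicate 1 and 67 without mutant replicate 1, beside 24 in the main fit. The 3091 genes at a nominal p under 0.05 became 1988, 1982 and 2097 without N2 replicate 3, mutant replicate 2 and mutant replicate 4. Without N2 replicates 1, 2 and 4 they were 3882, 2932 and 3446, and without mutant replicates 1 and 3 they were 4214 and 3380. List counts with an array left out are to be read beside these totals. A fit to the 8 starved arrays alone kept 6 of the 24 genes past the threshold, *hmg-11*, *alfa-1*, *pho-4*, *ugt-64*, *F23B2.7* and *T19C9.8*. The main fit pooled the spread with the less variable well-fed arrays, which favours calls in genes that vary more when starved. The fit to 8 arrays also estimates the spread from fewer arrays, and these effects were not told apart.

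**Figure D1:**
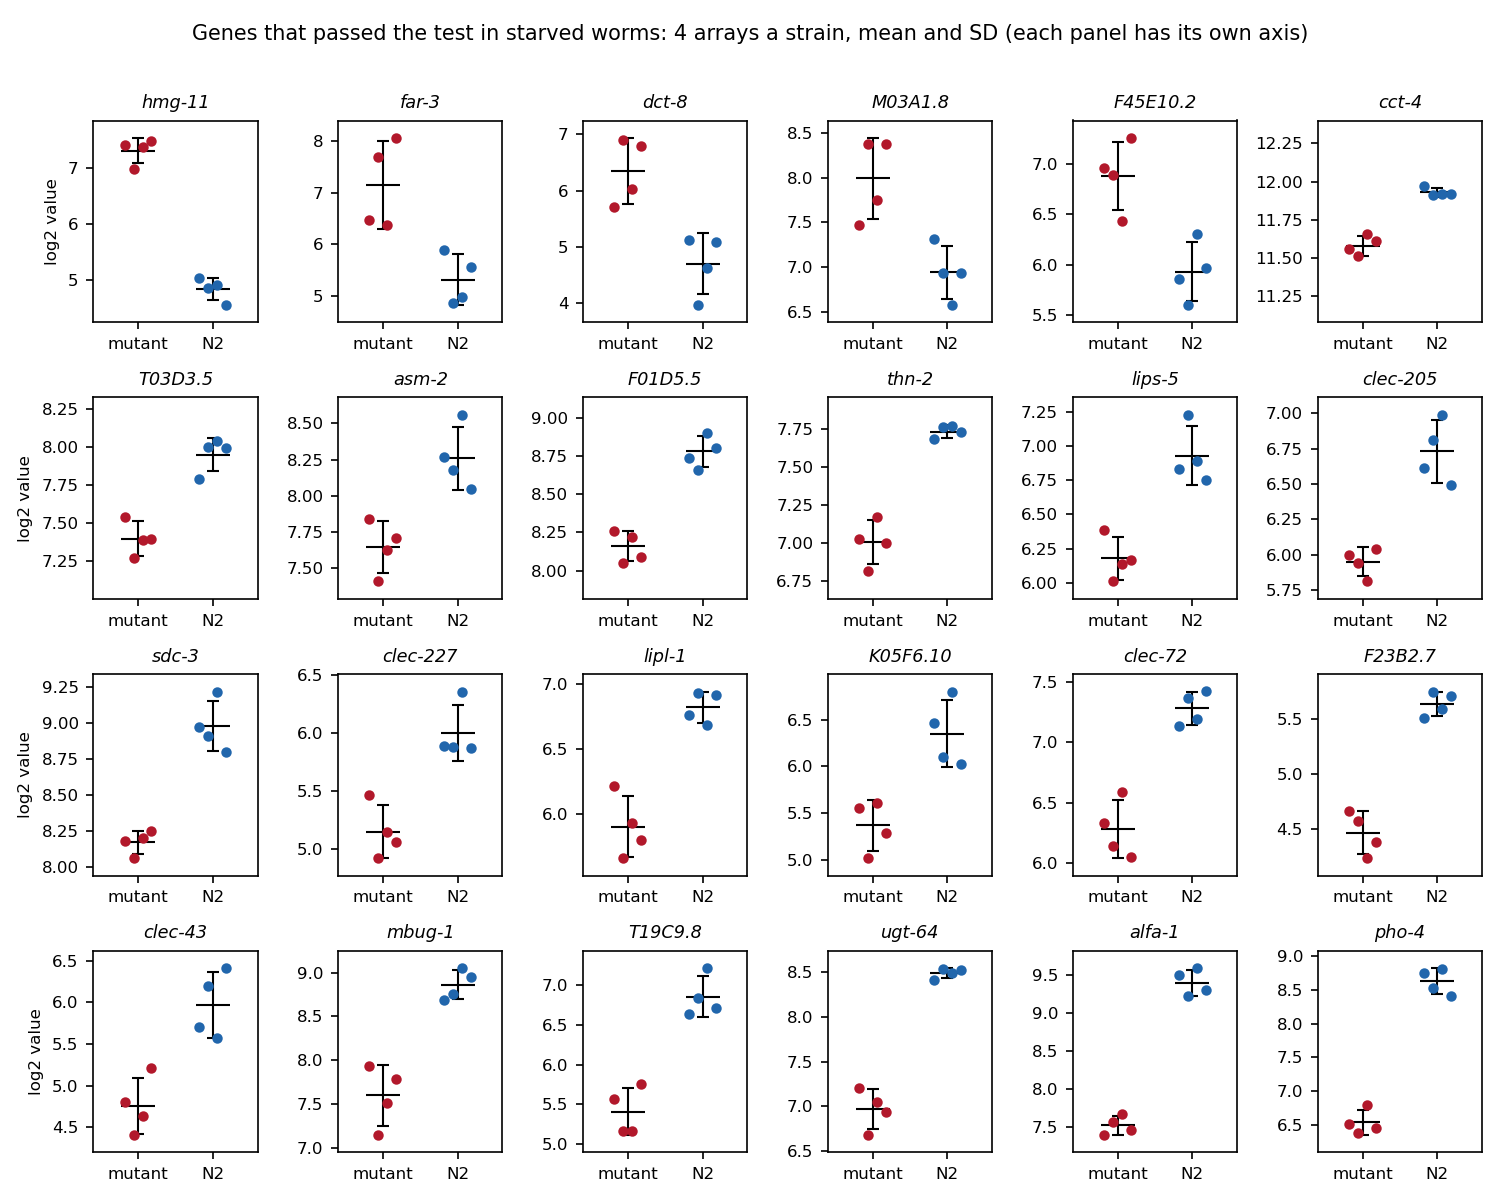
Log2 expression values (vertical axes, each with its own range) of the 24 genes that passed the test, with the 4 starved alfa-1(ok3062) arrays in red on the left of each panel, the 4 starved N2 arrays in blue on the right and the mean and SD in black. Panels run from the largest rise (hmg-11, log2 fold change 2.48) to the largest fall (pho-4, -2.09); far-3, dct-8 and M03A1.8 show the widest spread among mutant samples, from 6.37 to 8.06, 5.70 to 6.90 and 7.47 to 8.37.

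The largest fall belonged to *pho-4*, a gene of the acid phosphatase family. Starved mutant worms had log2 values of 6.51, 6.38, 6.80 and 6.45, and starved N2 worms had 8.75, 8.53, 8.81 and 8.41. All mutant samples lay far below all N2 samples, and the level was 4.26-fold lower in the mutant (log2 fold change -2.09, standard error 0.125, adjusted p = 1.55e-07 from limma). No other of the 12 pho genes passed. The next by p-value was *pho-14*, with a log2 fold change of -0.28 (adjusted p = 0.302), and the median of the family was -0.03.

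Among the genes of small-molecule conjugation, *ugt-64* fell. It encodes a UDP-glucuronosyltransferase, a family that attaches sugars to lipophilic compounds. Its log2 values were 7.21, 6.68, 7.05 and 6.94 in starved mutant worms and 8.41, 8.54, 8.49 and 8.52 in starved N2 worms. The N2 samples were almost identical (SD 0.0547) and the mutant samples lay 2.86-fold lower on average (log2 fold change -1.52, standard error 0.102, adjusted p = 6.74e-07 from limma). It was the only one of 67 tested UDP-glucuronosyltransferase genes to pass. Those next to it, *ugt-43* and *ugt-7*, had log2 fold changes of -0.90 and -0.51 with no overlap between the strains and did not pass (adjusted p = 0.132 and 0.170), while the median of the family was 0.08. None of the 74 cytochrome P450 genes and none of the 43 glutathione S-transferase genes passed, and the median of either family was -0.01. The assembly WBcel235 places *C07G3.10* over *ugt-64*, and its log2 fold change was -0.09.

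Other large falls occurred in genes known mainly by sequence names. *T19C9.8* had log2 values of 5.57, 5.17, 5.16 and 5.75 in the starved mutant, against 6.64, 6.83, 7.21 and 6.71 in starved N2 (log2 fold change -1.43, adjusted p = 0.000194 from limma). *mbug-1* had values of 7.93, 7.15, 7.51 and 7.79 in the mutant, against 8.69, 8.76, 9.05 and 8.95 in N2 (log2 fold change -1.27, adjusted p = 0.000441). *F23B2.7* had 4.67, 4.58, 4.24 and 4.39 in the mutant, against 5.51, 5.75, 5.59 and 5.71 in N2 (log2 fold change -1.17, adjusted p = 0.00108). In each of the 3 genes the highest mutant sample stayed below the lowest N2 sample, and each passed in all 8 fits with an array left out. *T03D3.5* was lower by a smaller amount, with 7.27 to 7.54 in the mutant and 7.79 to 8.04 in N2 (log2 fold change -0.55, adjusted p = 0.00840), and also passed in all 8 fits, but with the 8 starved arrays alone it did not (adjusted p = 0.330), nor did *mbug-1* (0.0645). *F01D5.5*, with 8.05 to 8.26 in the mutant and 8.66 to 8.90 in N2 (log2 fold change -0.62, adjusted p = 0.0266), was lost in 4 fits, those without N2 replicates 3 or 4 or mutant replicates 2 or 4, with adjusted p up to 0.129. *K05F6.10*, with 5.02 to 5.61 in the mutant and 6.03 to 6.80 in N2 (log2 fold change -0.98, adjusted p = 0.0383), was lost in 3, without N2 replicate 3 or mutant replicates 2 or 4, with adjusted p up to 0.154.

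Genes of surface recognition and defence contributed 5 of the 19 falls. C-type lectins are secreted or membrane proteins with a carbohydrate-binding fold, and many worm members of this large family are regulated in infection. Of 247 tested C-type lectin genes 4 were lower in the starved mutant (0.0745% of all genes were) and 0 were higher. The gene lists were chosen with earlier results of these data known, so this count does not measure enrichment. *clec-72* had log2 values of 6.33, 6.14, 6.59 and 6.05 in starved mutant worms and 7.13, 7.37, 7.19 and 7.42 in starved N2 worms (log2 fold change -1.0, standard error 0.114, adjusted p = 0.000669 from limma). *clec-43* had 4.80, 4.41, 4.64 and 5.21 in the mutant, against 5.70, 6.20, 5.57 and 6.41 in N2 (log2 fold change -1.21, standard error 0.190, adjusted p = 0.0175). The strains were separate for both genes, by 0.54 between the closest samples of *clec-72* and by 0.36 in *clec-43*. *clec-205* ranged from 5.81 to 6.04 in the mutant and from 6.49 to 6.99 in N2 (log2 fold change -0.78), and *clec-227* from 4.92 to 5.47 in the mutant and from 5.87 to 6.36 in N2 (log2 fold change -0.85), each with an adjusted p of 0.0175.

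The call of *clec-72* held in all 8 fits with an array left out and was lost with the 8 starved arrays alone (adjusted p = 0.0645). That of *clec-43* was lost without N2 replicate 2 or mutant replicates 2 or 3 (adjusted p up to 0.100), that of *clec-205* without N2 replicates 2 or 3 or mutant replicates 2 or 3 (up to 0.0864), and that of *clec-227* without mutant replicates 2 or 4 (up to 0.100). At a nominal p under 0.05, 33 C-type lectin genes were lower (13.4%, beside 7.27% of all genes) and 14 were higher (5.67%, beside 4.86%), and the family's median was -0.04, beside -0.02 for all genes. With an array left out the number of lower members ranged between 29, without mutant replicates 2 or 4, and 40, without mutant replicate 1. Over all genes 1982, 2097 and 4214 reached a nominal p under 0.05 in these fits, in either direction. In well-fed worms 30 members were lower and 6 higher at this threshold, which 2.38% of all genes reached as lower and 2.34% as higher (4.72% in all). Without N2 replicate 4, and likewise without mutant replicate 1, the number of higher members in starved worms was 8. The fifth gene was *thn-2*, of the thaumatin family, whose members include infection-induced genes. It had log2 values of 6.82 to 7.17 in starved mutant worms and 7.68 to 7.77 in starved N2 worms (log2 fold change -0.73, standard error 0.088, adjusted p = 0.00118), and missed the threshold with the 8 starved arrays alone (adjusted p = 0.0645). Within the list of 95 lysozyme, saposin, thaumatin and antimicrobial peptide genes it was alone in passing, and at a nominal p under 0.05 the list had 16 higher (16.8%, beside 4.86% of all genes) and 6 lower (6.32%, beside 7.27%) members. Without N2 replicate 3 there were 8 higher and 8 lower, where 3.46% and 4.34% of all genes were. Without mutant replicate 4 there were 9 higher and 4 lower, where 2097 of all genes reached that level in either direction.

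A dosage compensation gene and a chaperonin gene were also lower. *sdc-3* encodes a zinc finger protein that acts in sex determination and recruits the dosage compensation complex to the X chromosomes of hermaphrodites. Its log2 values were 8.18, 8.06, 8.20 and 8.25 in the starved mutant, against 8.97, 8.91, 9.22 and 8.80 in starved N2 (log2 fold change -0.80, standard error 0.102, adjusted p = 0.00205 from limma, and 0.0645 with the 8 starved arrays alone). The remaining 11 genes of the dosage compensation list did not pass, *dpy-27*, a condensin-like subunit of the complex, having a log2 fold change of 0.19 (adjusted p = 0.330). *cct-4* encodes a subunit of the CCT chaperonin, which folds actin and tubulin. It had 11.56, 11.51, 11.66 and 11.61 in the mutant, against 11.97, 11.91, 11.92 and 11.92 in N2, the smallest change among the 24 genes (log2 fold change -0.34, standard error 0.0605, adjusted p = 0.0410). The tight samples did not overlap, but 7 of the 8 fits with an array left out lost the call (adjusted p up to 0.154), all but the one without mutant replicate 3. The median of the 8 CCT genes was -0.04, and no other member passed.

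Among lipid genes, 1 of 8 lipl genes, 1 of 16 lips genes and 1 of 20 sphingolipid genes fell (beside 0.0745% of all genes), and 1 of 17 fatty acid and retinol binding genes rose (beside 0.0196%). These lists too were chosen with earlier results of these data known, so the counts do not measure enrichment. *lipl-1*, which encodes a lysosomal lipase, had log2 values of 6.21, 5.66, 5.93 and 5.80 in starved mutant worms and 6.76, 6.93, 6.68 and 6.91 in starved N2 worms (log2 fold change -0.92, adjusted p = 0.0133 from limma). The closest starved samples of the strains were 0.47 apart, and the call was lost without N2 replicate 2 or mutant replicates 2 or 4 (adjusted p up to 0.0775). Starved worms had less *lipl-1* signal than well-fed worms in both strains (log2 fold change -0.79 in the mutant and -0.68 in N2, adjusted p = 0.000748 and 0.00244 from limma). In well-fed worms the strain difference was -0.80 (adjusted p = 0.0316 from limma). Of the other 7 lipl genes 0 passed. *lipl-3* lay in the opposite direction, at 4.58, 4.28, 4.43 and 4.50 in the mutant and 3.95, 4.11, 4.01 and 3.94 in N2, again without overlap (log2 fold change 0.44, adjusted p = 0.150). *lips-5*, of another lipase family, had 6.39, 6.01, 6.14 and 6.17 in the mutant, against 6.83, 7.23, 6.89 and 6.75 in N2 (log2 fold change -0.75, adjusted p = 0.0410). It passed in 3 of 8 fits, and was lost without N2 replicates 2 or 3 or mutant replicates 2, 3 or 4 (adjusted p up to 0.165). *lips-6* had the larger difference (log2 fold change -1.07) but overlapping samples, from 5.38 to 6.65 in the mutant and from 6.54 to 7.59 in N2, and did not pass (adjusted p = 0.128).

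Sphingomyelinases split sphingomyelin into ceramide and phosphocholine, in lysosomes for the acid forms. *asm-2*, which encodes one of them, had log2 values of 7.84, 7.41, 7.63 and 7.71 in the starved mutant and 8.27, 8.18, 8.56 and 8.05 in starved N2 (log2 fold change -0.62, adjusted p = 0.0399 from limma). The related *asm-3* had 7.09, 6.74, 7.12 and 6.80 in the mutant, against 7.56, 7.64, 8.24 and 7.59 in N2, a larger difference that did not pass (log2 fold change -0.82, adjusted p = 0.107). Both genes were separate between the strains, and so was the ceramidase gene *asah-2* (log2 fold change -0.26, adjusted p = 0.286). The call of *asm-2* was lost in 5 of 8 fits, without N2 replicates 2 or 3 or mutant replicates 2, 3 or 4 (adjusted p up to 0.154). At a nominal p under 0.05, 7 of 20 tested sphingolipid genes were lower (35.0%, beside 7.27% of all genes) and 2 were higher, with a median of -0.13. With an array left out there were between 4 lower, without N2 replicate 3 (where 4.34% of all genes were lower), and 7. The number of higher genes was 1 without mutant replicates 2, 3 or 4 or N2 replicates 3 or 4.

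Genes of fat synthesis gave 0 calls among 24. The stearoyl-CoA desaturase gene *fat-6* had log2 values of 10.24, 10.69, 10.61 and 10.79 in starved mutant worms and 10.46, 9.56, 9.83 and 9.74 in starved N2 worms (log2 fold change 0.68, adjusted p = 0.141 from limma). The related desaturase gene *fat-5* (log2 fold change 1.13, adjusted p = 0.303) and the fatty acid synthase gene *fasn-1* (log2 fold change 0.35, adjusted p = 0.293) had the same sign. In *fat-6* and *fat-5* mutant replicate 1 lay below N2 replicate 1 and the remaining samples were separate, and in *fasn-1* mutant replicate 1 overlapped N2. Of 63 genes of fatty acid activation and oxidation 0 passed. The acyl-CoA dehydrogenase gene *acdh-4* had a log2 fold change of -0.72 without overlap (adjusted p = 0.113), and the hydroxyacyl-CoA dehydrogenase gene *hacd-1* one of 0.68 with overlap (adjusted p = 0.275).

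The largest rise was that of *hmg-11*, a high mobility group gene. It had log2 values of 7.42, 6.99, 7.39 and 7.49 in starved mutant worms, against 5.03, 4.85, 4.92 and 4.56 in starved N2 worms, a 5.59-fold difference (log2 fold change 2.48, standard error 0.116, adjusted p = 1.21e-08 from limma). No other of 18 high mobility group and linker histone genes passed; *hmg-20* was next (log2 fold change -0.25, adjusted p = 0.289). In WBcel235 *hmg-11* overlaps the lectin gene *clec-140*, whose log2 values of 4.51, 4.47, 4.18 and 4.54 in the mutant, against 3.75, 4.12, 3.64 and 3.71 in N2, were also without overlap (log2 fold change 0.62, adjusted p = 0.0656). The sources used here do not say which strand and exons either probe set reads, so the signals of the overlapping genes cannot be told apart.

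The other 4 higher genes varied among the mutant samples. *far-3*, which encodes a secreted fatty acid and retinol binding protein, had log2 values of 6.47, 7.69, 6.37 and 8.06 in starved mutant worms and 5.89, 4.86, 4.98 and 5.56 in starved N2 worms (log2 fold change 1.82, standard error 0.315, adjusted p = 0.0399 from limma). *dct-8*, named as a gene controlled by the insulin pathway factor DAF-16, had 5.70, 6.90, 6.03 and 6.79 in the mutant, against 5.12, 3.97, 4.63 and 5.09 in N2 (log2 fold change 1.65, standard error 0.296, adjusted p = 0.0468). *M03A1.8* had 7.47, 8.37, 7.75 and 8.37 in the mutant, against 7.31, 6.93, 6.58 and 6.93 in N2 (log2 fold change 1.05, standard error 0.181, adjusted p = 0.0399). In all 3 genes mutant replicates 2 and 4 were the high samples and mutant replicates 1 and 3 lay closer to N2, as was also the case for *odc-1*, which encodes the ornithine decarboxylase of polyamine synthesis and did not pass. *odc-1* had 9.60, 10.26, 9.64 and 10.21 in the mutant, against 9.33, 8.85, 8.55 and 8.99 in N2 (log2 fold change 1.0, adjusted p = 0.0671).

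Each of these calls depended on single arrays. In the fit to the 8 starved arrays alone none of them passed (adjusted p = 0.474 for *far-3* and *M03A1.8* and 0.462 for *dct-8* and *F45E10.2*, from limma). *far-3* and *M03A1.8* were lost without mutant replicates 2 or 4 or N2 replicates 2, 3 or 4 (adjusted p up to 0.154 for both), and *dct-8* without mutant replicates 2, 3 or 4 or N2 replicates 2 or 3 (up to 0.208). *F45E10.2*, with 6.96, 6.89, 6.43 and 7.26 in the mutant and 5.86, 5.60, 6.30 and 5.97 in N2 (log2 fold change 0.95, adjusted p = 0.0410 from limma), passed only without mutant replicate 3 or N2 replicate 3 (up to 0.158 otherwise), the samples in which the strains came closest. The overlapping genes *far-5* and *ilkp-1* had log2 fold changes of 0.08 beside *far-3* and 0.12 beside *F45E10.2*. By contrast *hmg-11* passed in all 8 fits.

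The strain difference of the 24 genes was then set beside that in well-fed worms, measured on the other 8 arrays. Both tests share the same estimate of spread for each gene, and the methods divided collected worms into fed and starved tubes. The well-fed result is therefore not an independent repeat. All 24 kept their sign, 20 were also without overlap between the well-fed strains (4.26% of all genes), and 12 passed there too, where 23 of all genes passed (0.0902%), 1 of them higher (0.00392%) and 22 lower (0.0863%). The log2 fold change was larger in size in starved than in well-fed worms for 22 of the 24, which were chosen on the starved arrays, and smaller for *pho-4* (-2.09 starved, -2.10 well-fed) and *cct-4* (-0.34 starved, -0.43 well-fed). A test of the difference itself passed for 0 of 25498 genes (smallest adjusted p = 0.735 from limma, 1641 genes or 6.44% at a nominal p under 0.05), and 8 of the 24 genes were at a nominal p under 0.05.

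**Figure D2:**
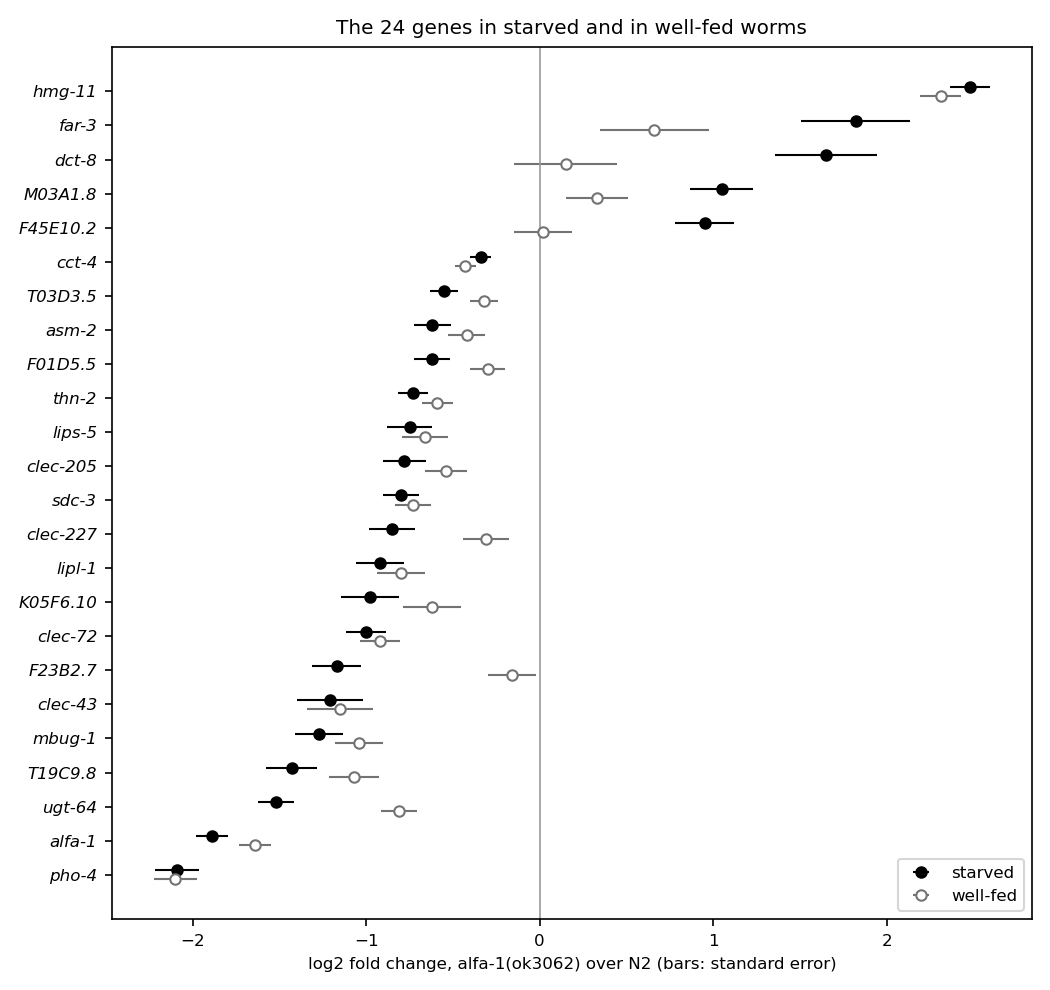
Log2 fold change of alfa-1(ok3062) over N2 (horizontal axis, bars are standard errors) for the 24 genes, in starved worms (filled) and in well-fed worms (open). Filled and open points lie close together for hmg-11, pho-4, clec-43 and cct-4, and far apart for dct-8 (1.65 and 0.15), F45E10.2 (0.95 and 0.02) and F23B2.7 (-1.17 and -0.16).

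The 12 genes that did not pass in well-fed worms were 4 higher and 8 lower. The 8 lower ones had a median log2 fold change of -0.76 in starved and -0.37 in well-fed worms. They were selected for passing in starved and not in well-fed worms, which by itself favours a larger size in starved worms. *F23B2.7* differed most clearly among them. Its means in the mutant were 4.47 starved and 5.61 well-fed, a fall of the starved worms by 1.14 on the log2 scale, whereas its means in N2 were 5.64 starved and 5.77 well-fed. The interaction was -1.01 (unadjusted p = 0.00011, adjusted p = 0.735 from limma). *ugt-64* passed in both conditions with unequal size, the mutant having means of 6.97 starved and 7.94 well-fed and N2 8.49 starved and 8.75 well-fed (interaction -0.71, unadjusted p = 0.00017, adjusted p = 0.735). *dct-8* had means of 6.35 starved and 4.60 well-fed in the mutant, and of 4.70 starved and 4.44 well-fed in N2 (interaction 1.5, unadjusted p = 0.00255, adjusted p = 0.735). For these genes the difference between food conditions was therefore not past the adjusted threshold.

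Just outside the threshold lay 6 genes with adjusted p between 0.0570 and 0.0671, none of them overlapping between the strains. Besides *odc-1* and *clec-140* these were *csp-2*, a caspase family gene (log2 fold change -0.50), *C31B8.12* (-0.65), *dod-22*, a gene downstream of DAF-16 (-0.59), and *B0462.5* (-0.73). *csp-2* had 6.12, 6.00, 6.26 and 6.03 in the starved mutant and 6.53, 6.69, 6.73 and 6.44 in starved N2, and well-fed worms gave 0.03 as its log2 fold change. *dod-22* had 6.27 to 6.69 in the mutant and 6.84 to 7.22 in N2. *B0462.5* had the same log2 fold change, -0.73, in well-fed worms, where it also missed the threshold (adjusted p = 0.0651). Of 25 dod and dct genes, only *dct-8* passed, and *dod-24* had a log2 fold change of -0.47 (adjusted p = 0.220).

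Of the 21 genes of the Rag GTPase, TORC1 and C9orf72 complex list, only *alfa-1* passed. The partner gene *smcr-8* had log2 values of 7.78, 7.88, 7.84 and 7.74 in starved mutant worms and 8.24, 7.75, 8.40 and 7.81 in starved N2 worms, which overlapped (log2 fold change -0.24, adjusted p = 0.443 from limma). The Rag GTPase genes *raga-1* and *ragc-1* had log2 fold changes of -0.08 and -0.18 (adjusted p = 0.632 and 0.423), and *daf-15*, the worm Raptor, one of -0.09 (adjusted p = 0.572). Counting *alfa-1*, 17 of the 21 were below 0, as were 13776 of all 25498 genes. The median was -0.11, beside -0.02 for all genes. At a nominal p under 0.05, 4 were lower (19%, beside 7.27% of all genes), *alfa-1* among them. The others were *rict-1* (Rictor of TORC2), *aak-1* (AMP-activated kinase) and *nprl-2* (a TORC1 inhibitor of the GATOR1 complex), with log2 fold changes of -0.19, -0.21 and -0.25. Without N2 replicate 3, and likewise without mutant replicate 2, the number lower was 1, *alfa-1* itself. In these fits 4.34% and 4.19% of all genes were lower. Without mutant replicate 4 the number was 2, and without N2 replicate 4 it was 7. *hlh-30* itself had a log2 fold change of 0.03. Of 25 autophagy genes 0 passed; the cargo receptor gene *sqst-1* had 9.97, 10.80, 10.68 and 10.76 in the mutant, against 10.68, 10.07, 10.07 and 10.06 in N2 (log2 fold change 0.33, adjusted p = 0.456). Here replicate 1 of each strain lay on the side of the other strain. Among 49 V-ATPase, cathepsin and lysosomal membrane genes 0 passed, and the proteases nearest to it were *cpr-4*, a cathepsin B gene (log2 fold change -0.75, adjusted p = 0.161), and *asp-17*, an aspartyl protease gene (-0.43, adjusted p = 0.236).

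Genes tied to the molting cycle and to the germline differed at the nominal level without any call. Larvae remake their cuticle at each molt, with bursts of molting and collagen genes, while oocyte genes appear as the germline matures, so both depend on developmental time. Of 123 molting genes 0 passed, and 24 were higher (19.5%, beside 4.86% of all genes) and 4 lower at a nominal p under 0.05, and the median gene had a log2 fold change of 0.16 in starved and 0.00 in well-fed worms. *ptr-8*, a patched-related gene, had 8.75, 9.26, 9.10 and 9.27 in the mutant, against 8.98, 8.52, 7.80 and 8.29 in N2 (log2 fold change 0.69, adjusted p = 0.250 from limma). *nhr-25*, a nuclear receptor required for molting, had 8.82, 9.38, 9.12 and 9.34 in the mutant, against 8.87, 8.63, 8.40 and 8.57 in N2 (log2 fold change 0.55, adjusted p = 0.116). In both genes mutant replicate 1 lay below N2 replicate 1 and the remaining samples were separate. The insulin-like peptide gene *ins-4* had a log2 fold change of 0.63 (adjusted p = 0.223).

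In the opposite direction, 11 of 20 oocyte and eggshell genes were lower at a nominal p under 0.05 in the starved mutant (55%, beside 7.27% of all genes), 0 were higher and 0 passed, with a median of -0.20 in starved and -0.01 in well-fed worms. *oma-1*, which controls oocyte maturation, had 11.77, 11.63, 11.64 and 11.58 in the mutant, against 11.85, 11.86, 12.03 and 11.82 in N2 (log2 fold change -0.23, adjusted p = 0.288 from limma). The summed level of the germline markers, on the log2 scale, was 11.25 to 11.48 in the starved mutant and 11.56 to 11.70 in starved N2, with 3 of 4 markers lower at a nominal p under 0.05. That of the oocyte markers was 13.10 to 13.28 in the mutant and 13.33 to 13.58 in N2, again with 3 of 4 lower. The ranges of both marker sums were thus separate between the strains. Those of sperm, intestine, hypodermis, muscle, neuron, pharynx and adult stage markers overlapped. At a nominal p under 0.05, 2 of 6 intestine, 2 of 4 sperm and 1 of 4 adult stage markers were lower, and 1 sperm marker was higher. No hypodermis, muscle, neuron or pharynx marker reached that level. *vit-1*, a yolk protein gene with close copies, had 7.76, 7.48, 7.48 and 7.34 in the mutant, against 8.08, 7.94, 8.05 and 7.99 in N2 (log2 fold change -0.50, adjusted p = 0.109).

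Single samples carried much of these list differences. Relative to each gene's mean over the 8 starved arrays, the median molting gene was at 0.00, 0.20, 0.04 and 0.09 in mutant replicates 1 to 4 and at -0.01, 0.01, -0.38 and 0.08 in N2 replicates 1 to 4. The median oocyte and eggshell gene was at -0.03, -0.24, -0.01 and -0.10 in the mutant and at 0.00, 0.06, 0.25 and 0.06 in N2. N2 replicate 3 thus lay lowest in molting and highest in oocyte genes, and mutant replicate 2 lay at the other end of both. Without N2 replicate 3, 11 molting genes were higher and 7 lower, and 3 oocyte and eggshell genes were lower, while 3.46% of all genes were higher and 4.34% lower. Without mutant replicate 2 the molting genes gave 17 higher and 4 lower and the oocyte and eggshell genes 4 lower, while 3.58% of all genes were higher and 4.19% lower. Without mutant replicate 4 there were 2 lower molting genes and 6 lower oocyte and eggshell genes. In that fit 2097 of all genes reached a nominal p under 0.05 in either direction. The part of developmental time in the 24 calls was not tested.

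**Figure D3:**
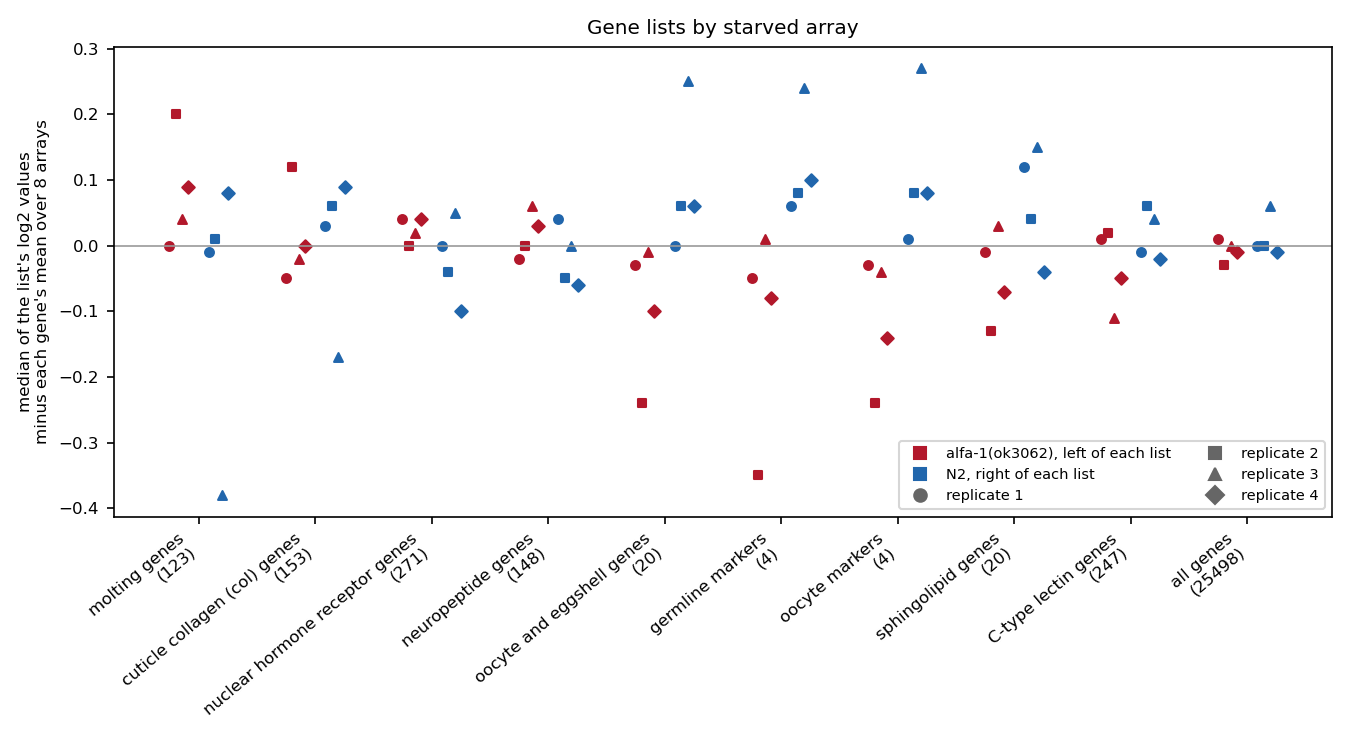
Median, over the genes of a list, of each gene's log2 value minus its mean over the 8 starved arrays (vertical axis), for 9 lists and all genes, with alfa-1(ok3062) arrays in red left of N2 arrays in blue and a marker shape for each replicate number. N2 replicate 3 (blue triangle) is lowest for molting genes at -0.38 and highest for oocyte and eggshell genes at 0.25, and mutant replicate 2 (red square) lies at 0.20 and -0.24.

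The remaining lists gave 0 calls in starved worms. At a nominal p under 0.05, which 4.86% of all genes reached as higher and 7.27% as lower, 20 of 271 nuclear hormone receptor genes were higher and 5 lower (7.38% and 1.85%). Neuropeptide genes had 14 higher and 5 lower of 148 (9.46% and 3.38%), among the higher ones the insulin-like peptide gene *ins-23*, with no overlap (log2 fold change 0.65, adjusted p = 0.227 from limma). With an array left out, the higher neuropeptide genes numbered between 8, without N2 replicate 3 or mutant replicate 4, and 26, without N2 replicate 1. The lower ones were 3 without N2 replicate 1 or mutant replicate 4. Over all genes 1988, 2097 and 3882 reached a nominal p under 0.05 without N2 replicate 3, mutant replicate 4 and N2 replicate 1. The higher receptor genes numbered between 13, without N2 replicate 2, and 26, without mutant replicate 1, where 2932 and 4214 of all genes reached that level. The lower ones were 8 without mutant replicate 3, where 3380 of all genes did. The other lists are given by their medians. Those of the 340 F-box genes (0.02), 153 collagen genes (0.01), 54 amino acid metabolism genes (-0.01), 22 muscle genes (0.02), 39 glycolysis and TCA cycle genes (-0.05), 14 insulin signalling genes (-0.07) and 62 cytosolic ribosomal protein genes (-0.04) lay close to the -0.02 of all genes. The 8 small heat shock protein genes, several of which are near-identical copies, had a median of 0.19 in starved and -0.15 in well-fed worms, the 5 vitellogenin genes -0.12 in starved and 0.08 in well-fed worms, and the 4 major sperm protein genes -0.29 in starved and -0.05 in well-fed worms.

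**Figure D4:**
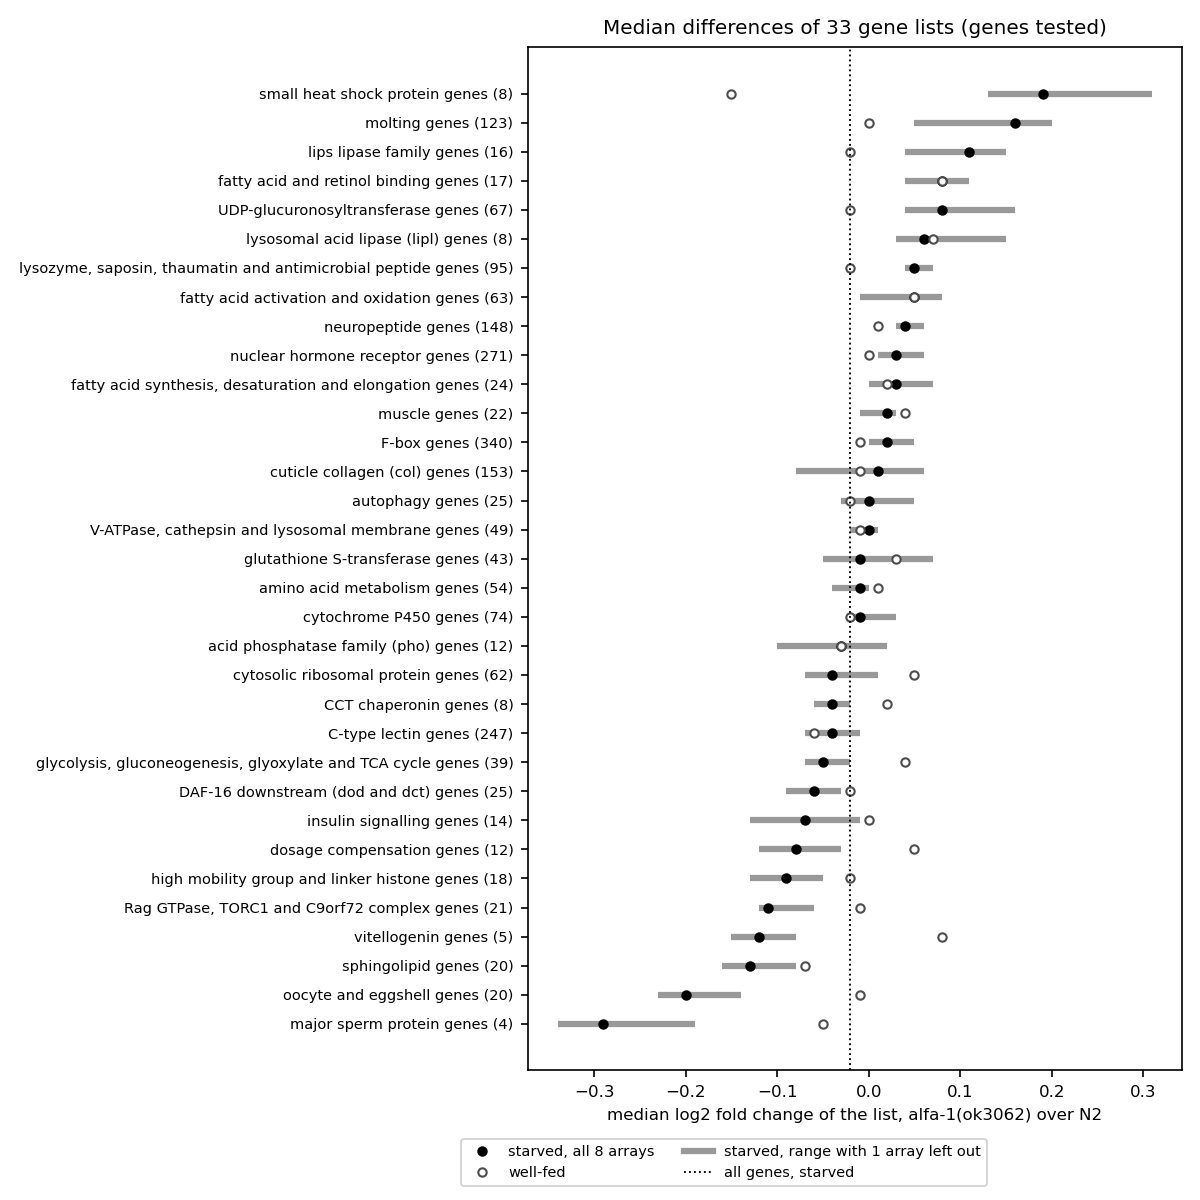
Median log2 fold change of alfa-1(ok3062) over N2 (horizontal axis) for 33 gene lists with the number of genes tested in brackets, in starved worms (filled), with 1 starved array left out (grey range) and in well-fed worms (open); the dotted line is the median of all genes in starved worms (-0.02). The molting list lies at 0.16 with a range of 0.05 to 0.20, the oocyte and eggshell list at -0.20 with a range of -0.23 to -0.14, and most other lists within 0.10 of 0.

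By chromosome, 9 of the 24 genes lay on II (37.5%, where 16.3% of tested genes lie), 8 on V (33.3%, beside 23.9%), 6 on IV (25%, beside 15.3%) and 1 on X (4.17%, beside 19.2%), with 0 on I and III. *alfa-1* itself lies on II, with *hmg-11*, *pho-4*, *clec-43*, *cct-4*, *F01D5.5*, *K05F6.10*, *M03A1.8* and *F45E10.2*. Among the genes past the threshold and the 6 next to it, some lay near each other. *alfa-1* was in none of these near pairs. *mbug-1* and *dod-22* on IV had 1 tested gene between them and log2 fold changes below 0, as had *T03D3.5* and *C31B8.12* on V with 29 between them. *hmg-11* and *M03A1.8* on II had 21 between them and were both higher, while *clec-72* and *dct-8* on IV (15 between) and *lipl-1* and *far-3* on V (37 between) went in opposite directions. Linked variants of the mutant strain and the deletion cannot be told apart in this design.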

How the data were processed

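Whole worms were measured on 16 Affymetrix arrays, in 4 groups of 4. The authors deposited log2 values per probe set, with RMA and Partek named in the submitters' processing notes (no versions and no genome build are stated there). RMA normalizes arrays by quantiles, so a shift shared by most genes would be removed. No intensities or detection calls were used, and precision is limited by the number of arrays.

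The platform table left 646 probe sets with several genes and 3125 not listed out of the gene table. For 37 genes with several probe sets the one with the highest mean was used. Limma 3.58.1 in R 4.3.3 was fitted to 16 arrays with 4 group means (12 residual degrees of freedom), with Benjamini-Hochberg adjustment over 25498 genes. Tables and figures were made with Python 3.11.15, pandas 2.3.3, numpy 2.4.6, scipy 1.17.1 and matplotlib 3.10.9. Gene order and overlap came from a RefSeq table of WBcel235, which matched 25495 probe sets by gene identifier. On simulated data for the starved comparison of 25498 genes, limma recovered 50.7% of log2 changes of 0.5 (67 genes), 98.5% of changes of 1 (67 genes) and 100% of changes of 2 (66 genes), with 16 false calls. The simulated noise was independent between samples, with the same spread in all groups. The real starved groups were more variable than the well-fed groups, so recovery in them may be lower and false calls more frequent. The fit pooled the spread of all 4 groups. For genes that vary more in starved worms, the standard errors of the starved comparison may therefore be too small.

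The members, the 33 gene lists and the tests were chosen with earlier results of these data known. Genes named are those past the test, the 6 next by p-value, genes the paper names, up to 3 members of smallest p per list, and the markers. Alternatives were each starved array left out, the replicate number as a block, the 8 starved arrays alone, quantile and cyclic loess normalization, median centring, a filter on dim probe sets, array weights, an intensity trend, all probe sets and the methods' t-test. Leaving arrays out of the list counts was chosen after seeing the data. All samples were used, and 0 columns had no sample.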

Additional observations from a re-analysis of the deposited data

Results flagged for a closer look

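In starved N2 worms *clec-227* had a log2 value of 6.36 in replicate 3, far from 5.87 to 5.89 in the other replicates, a gap of 0.957 of the group's range. Among 60 groups of 4 checked this was 1 case, and chance gives about 1 in 20 groups.

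Of the probe sets outside the gene table, 2 passed limma when all probe sets were tested. One that the platform table does not list had 7.99 ± 0.172 in the starved mutant and 8.79 ± 0.211 in starved N2 (SD, n = 4 each; log2 fold change -0.80, adjusted p = 0.00597). The other, paired with several genes, had 6.33 ± 0.563 in the mutant and 7.73 ± 0.368 in N2 (SD, n = 4 each; log2 fold change -1.40, adjusted p = 0.0304).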

How the results depend on the processing

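The counts of 5 higher and 19 lower genes became 1 and 5 with the 8 starved arrays fitted alone, 46 and 48 with array weights, and 1 and 2 by the methods' t-test after Benjamini-Hochberg adjustment (643 and 1119 unadjusted); the cause was not tested. With 1 array left out they ranged between 1 and 44 higher and between 10 and 38 lower. They were 44 and 27 without N2 replicate 1, and 29 and 38 without mutant replicate 1. They stayed within 1.5 times under quantile and cyclic loess normalization, median centring, an intensity trend, the filter on dim probe sets and all probe sets. The replicate numbers of the labels did not pair the starved mutant with the starved N2 samples (correlations of same-numbered deviations of -0.472, 0.149, 0.139 and -0.054). Pairing of starved with well-fed samples of a strain was not checked. With the replicate number as a block 1 gene was higher and 10 lower, and the call of *T03D3.5* was among those lost (adjusted p = 0.0511 from limma). Under this block, array weights and quantile normalization 0 genes passed the interaction. *alfa-1* passed under every setting, with log2 fold changes between -1.95 and -1.80. The 23 other genes that passed had 389 values under the alternatives, of which 272 passed and 117 did not, and 46 genes that had not passed had 34 of 780 values that did; 0 of these values changed sign. In the simulation, with equal noise in all groups, changes near 0.5 on the log2 scale were at the limit of 4 arrays a group.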
